A study of Mus musculus with 6 samples.

Results

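The 39 genes described here encode the folding chaperones of the endoplasmic reticulum (ER), the sensors and effectors of the unfolded protein response, and the chaperones of the heat shock response. They were taken by gene symbol from a fixed list, and all 39 were found among the 24346 symbols measured in each library. The ER branch holds 25 of them and the heat shock branch 14, of which Hspd1 and Hspe1 act in mitochondria and the rest in the cytosol and nucleus. The samples were retinas of mice labelled Cyfip2 CKO, a conditional knockout of Cyfip2, and of mice labelled Cyfip2 WT, with 3 libraries in each group. The study asked which transcripts differ in the retina after conditional knockout of Cyfip2, a subunit of the WAVE complex that drives branched actin assembly. The sources used here do not give the Cre driver, the alleles, the age of the mice or the number of mice behind each library. No treatment is named for either group. Nothing says whether the libraries of a group came from separate animals, so the p-values measure only the spread between these libraries, which may be technical.

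Secreted and membrane proteins fold in the ER lumen, where HSP70-type, lectin-type and disulfide-forming chaperones act on them. When unfolded proteins build up, the sensors IRE1 (encoded by Ern1), PERK (Eif2ak3) and ATF6 signal to the nucleus, where spliced XBP1, ATF4 and cleaved ATF6 raise chaperone, degradation and amino acid genes, and prolonged stress raises CHOP (Ddit3). In the cytosol, unfolded proteins release HSF1, which turns on the inducible HSP70, HSP110 and small heat shock genes. Photoreceptors fold large amounts of rhodopsin through the ER, and misfolded rhodopsin is a known trigger of this response in inherited retinal disease.

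The promoter stretches printed here were chosen among those of the members that hold a known response element of either branch. RefSeq promoters of GRCm38.p6, from 250 bases before to 50 bases after the annotated start, were found for 32 of the 39 members. None was found for Hyou1, Manf, Atf6, Hspa8, Hsp90aa1, Hsp90ab1 and Hsf1. Both strands were searched for exact matches, and the runs CCAAT and CCACG of the first motif below recur in the second, the former on the other strand. The ER stress response element (ERSE), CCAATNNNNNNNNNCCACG, was in the promoters of 7 of 22 ER members (31.8%), in 0 of 15 promoters of heat shock members and in 0.119% of all 32851 promoters. Hsp90b1 held 2 matches, of which the nearer to the start is shown. Printed 5′ to 3′ on the strand that carries the motif, with the fixed letters of the motif in capitals, the 7 are as follows.
Hspa5, chr2:34772010-34772058, plus strand: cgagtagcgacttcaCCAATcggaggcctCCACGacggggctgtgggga
Hsp90b1, chr10:86705518-86705566, plus strand: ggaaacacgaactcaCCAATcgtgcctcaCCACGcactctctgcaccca
Calr, chr8:84847060-84847108, plus strand: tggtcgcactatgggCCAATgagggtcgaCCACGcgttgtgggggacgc
Canx, chr11:50325785-50325833, minus strand: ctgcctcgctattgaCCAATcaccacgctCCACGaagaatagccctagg
Pdia6, chr12:17266476-17266524, plus strand: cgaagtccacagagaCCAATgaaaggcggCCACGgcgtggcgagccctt
Dnajc3, chr14:118937812-118937860, plus strand: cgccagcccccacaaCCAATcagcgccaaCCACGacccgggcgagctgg
Creld2, chr15:88819505-88819553, minus strand: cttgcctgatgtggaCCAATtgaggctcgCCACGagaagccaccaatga

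The shorter ERSE-II element, ATTGGNCCACG, was in the promoters of Herpud1 and Dnajb11 and in 0.0365% of all promoters. The element bound by ATF4 and C/EBP partners (CARE), searched as TGATGNAA, was in those of Chac1, Trib3 and Herpud1 and in 3.97% of all promoters. The heat shock element (HSE), searched as GAANNTTCNNGAA, was in 0.603% of all promoters and in those of 3 of the 10 heat shock members with a promoter, Hspd1, Hspe1 and Hsph1. None of the 22 ER promoters held that HSE, and none of the heat shock promoters held an ERSE-II or CARE match. Hspd1 and Hspe1 lie head to head and share the same element, which is printed once. The stretches of Dnajb11, Trib3 and Hsph1 lie within the first 50 bases after an annotated RefSeq start. Of these only that of Hsph1, the member with the smallest p below, is printed, in a shorter form. Starts differ between annotations, and by the GENCODE positions the printed stretches of Hspa5 and Hspd1 lie inside those genes. A match is a run of letters and does not show that a factor binds there. The lack of an exact match in these stretches does not show that a gene has no such element.
Herpud1 ERSE-II, chr8:94386362-94386402, plus strand: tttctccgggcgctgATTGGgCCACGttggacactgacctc
Herpud1 CARE, chr8:94386302-94386339, minus strand: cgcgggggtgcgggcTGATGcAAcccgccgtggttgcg
Chac1 CARE, chr2:119351034-119351071, minus strand: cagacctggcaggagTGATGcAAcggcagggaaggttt
Hspd1 and Hspe1 HSE, chr1:55088049-55088091, plus strand: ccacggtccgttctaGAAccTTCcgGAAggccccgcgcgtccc
Hsph1 HSE, chr5:149636287-149636315, plus strand: aGAActTTCcaGAAtctgcagcattttac

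The labels were checked on the targeted gene and on the tissue. Cyfip2 was at 8.325, 10.25 and 11.2 FPKM in CKO 1 to 3 and 35.45, 63.15 and 62.3 FPKM in WT 1 to 3, with a log2 fold change of -2.29 (SE 0.21, 95% interval -2.78 to -1.795, limma adjusted p = 0.0239). The CKO mean was 0.185 times the WT mean, so the Cyfip2 transcript was lowered in CKO retina and not absent. WT 1 was the lowest WT library for Cyfip2 and still above every CKO library, and the limma adjusted p rose as high as 0.182 when WT 2 was left out. The retina-defining markers were abundant in all libraries, with the 12 genes summing to 11230 to 11800 FPKM in CKO and 11590 to 12170 FPKM in WT. The libraries did differ in the summed levels of genes listed here as markers of lens and of glial activation. Lens markers (9 of 9 in the files, 6 tested) summed to 79.8 to 95.7 FPKM in CKO and 87.5 to 300.0 FPKM in WT, highest in WT 2, and the lens membrane gene Lim2 was at 0 in 3 libraries. A large part of each CKO sum was Cryab, which was at 48.7 to 74.4 FPKM over the 6 libraries. Of the 6 tested, 3 had an unadjusted limma p below 0.05, beside 7.88% of all genes. They were Cryaa, Crygs and Cryba1, all lower in CKO, and 0 were called. The other tested lens markers, Crybb2, Cryab and Bfsp2, had log2 fold changes of -1.19, -0.18 and -0.013. Gliosis markers (8 of 8 in the files, 6 tested) summed to 35.3 to 52.4 FPKM in CKO and 38.0 to 77.5 FPKM in WT, highest in WT 3. Of the 6 tested gliosis markers, 0 had an unadjusted limma p below 0.05. Sequencing depth relative to WT 1 was 1.05, 1.30 and 1.19 in CKO 1 to 3 and 1.09 and 1.06 in WT 2 and 3, and the absolute depth is unknown.

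The 39 members covered a wide range of levels, with the abundant cytosolic chaperones at the top and the ATF4 and CHOP targets Chac1 and Trib3 and the cochaperone Bag3 at the bottom. Levels are given as FPKM, a count of fragments divided by transcript length and library size, which allows comparison between genes. Means over the 6 libraries ran from 1.175 FPKM for Chac1 to 599 FPKM for Hspa8, the constitutive cytosolic HSP70. Hspa8 ranked 46 among the 13215 genes tested by level, and Hsp90aa1 ranked 50, Hsp90ab1 127, Atf4 233 and Calr 256. At the other end, Bag3 ranked 12241 and Chac1 12972. In the ER branch, Atf4 at 239 FPKM and Calr at 228 FPKM lay closest together at the top and overlapped between libraries, followed by Hsp90b1 at 159.6 and Hspa5 at 129 FPKM, whose libraries did not overlap. In the heat shock branch, Hspa8 and Hsp90aa1 (588 FPKM) overlapped and Hsp90ab1 (357 FPKM) lay below both in every library. The inducible Hspa1a and Hspa1b, at 5.47 and 4.90 FPKM, were far lower, with Hspa8 86.9 to 140.8 times the level of Hspa1a within a library.

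**Figure D1:**
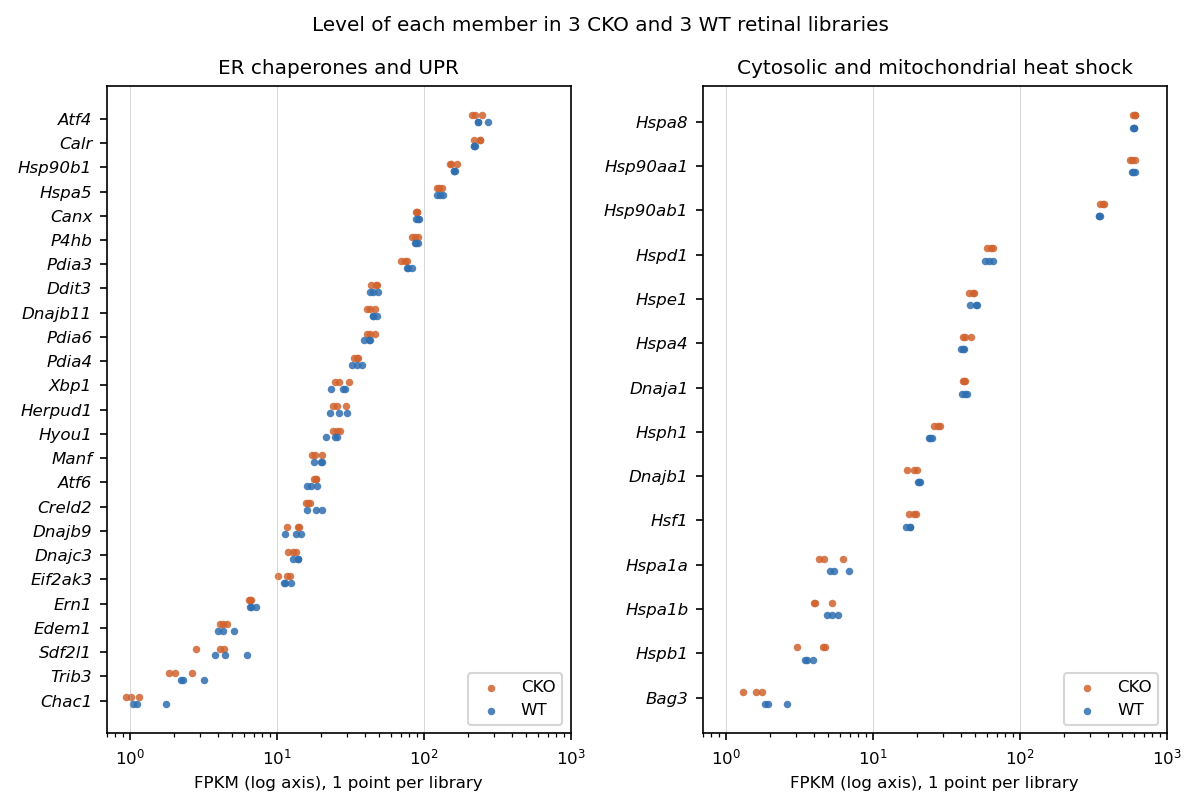
Level of each member in FPKM (log axis), with 1 point per library, CKO in orange and WT in blue, ER branch on the left and heat shock branch on the right. Levels span from about 1 FPKM for Chac1 to about 600 FPKM for Hspa8, and CKO and WT points lie close together in nearly every row.

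None of the 39 members differed between CKO and WT retina past the threshold, in either branch. The test was limma on log2(FPKM + 1) with Benjamini-Hochberg adjustment over the 13215 genes that averaged 1 FPKM or more, and it called 3 genes, 0.0227% of those tested. At an unadjusted limma p below 0.05, 1 of the 39 members was left, Hsph1, higher in CKO. Over all genes that share was 7.88%, with 3.52% higher and 4.36% lower in CKO. Libraries of the groups did not overlap for 5 members (12.8%), beside 13.9% of all genes. Of these, Hsph1 and Hsp90ab1 were higher in every CKO library than in any WT library (all genes 6.96%), and Pdia3, Dnajb1 and Bag3 were lower (all genes 6.95%). The share of non-overlapping members is thus close to that of all genes. By branch it was 1 of 25 ER members (4.0%) and 4 of 14 heat shock members (28.6%), the latter split into 2 higher and 2 lower, and the difference between the branches was not tested. Because the retina was measured in bulk, fewer cells of a type and less RNA per cell cannot be told apart.

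The intervals limit how large a missed difference could be. For 31 of the 39 members the 95% interval of the fold change lay within 1.25-fold in both directions, as for 62.6% of all genes. Within 1.5-fold it lay for 37 members, and for 92.8% of all genes. The exceptions to the wider bound were Sdf2l1 and Bag3, and the 6 others outside the narrower bound were Creld2, Trib3, Chac1, Hspa1a, Hspa1b and Hspb1. Apart from Creld2 these are members of low level, and log2(FPKM + 1) understates the differences of such genes. The median log2 fold change was -0.030 in the ER branch, 0.00027 in the heat shock branch and -0.0016 over all genes. In the ER branch 7 members lay above 0 and 18 below, and in the heat shock branch 7 above and 7 below, beside 6537 and 6678 of all genes. After quantile normalization, which moves values near 0 across it, the ER branch had 11 above and 14 below and the heat shock branch 9 above and 5 below, with a median of 0.033.

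**Figure D2:**
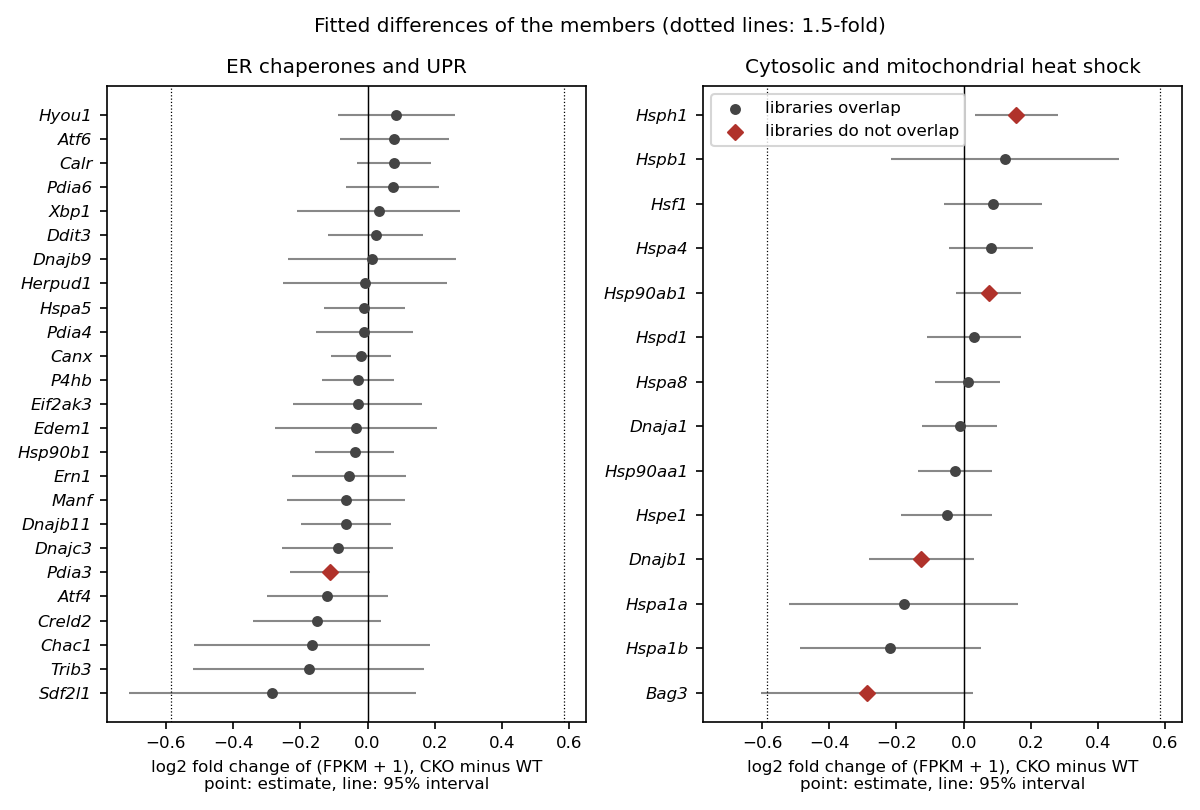
Log2 fold change of (FPKM + 1), CKO minus WT, of each member with its 95% interval from the limma fit, ER branch on the left and heat shock branch on the right, and dotted lines at 1.5-fold. Red diamonds mark the 5 members whose libraries did not overlap, and Hsph1 is the one member whose interval leaves out 0.

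Among the ER lumen chaperones, BiP and its partners overlapped between the genotypes. Hspa5 encodes BiP, the HSP70 of the ER lumen and the usual readout of the unfolded protein response, and lies at chr2:34771970-34777547 (GRCm38, plus strand). It was at 124, 127 and 134 FPKM in CKO 1 to 3 and 135, 129.6 and 123 FPKM in WT 1 to 3. The highest value was in WT 1 and the lowest in WT 3, so the CKO libraries fell inside the WT range. The log2 fold change was -0.0093 (SE 0.052, 95% interval -0.13 to 0.11, limma adjusted p = 0.980), which leaves room for a rise or fall of less than 1.25-fold. Calr, which encodes the lectin chaperone calreticulin, was at 240.4, 221 and 242 FPKM in CKO 1 to 3 and 219, 225 and 221 FPKM in WT 1 to 3. CKO 1 and CKO 3 were above all WT libraries and CKO 2 lay among them. With these values the log2 fold change was 0.080 (SE 0.048, 95% interval -0.030 to 0.19, limma adjusted p = 0.749).

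The other lumen chaperones also overlapped between the groups. Hsp90b1 encodes GRP94, the HSP90 of the ER, and had a log2 fold change of -0.038, and Canx, the membrane-bound partner of calreticulin, one of -0.020. Canx varied least in this branch, with 89.0 to 92.5 FPKM over the 6 libraries. Hyou1, a nucleotide exchange factor for BiP, had the highest log2 fold change of the ER branch at 0.085 (95% interval -0.089 to 0.26). The J-domain partners of BiP were near 0 or below it, with log2 fold changes of 0.013 for Dnajb9, -0.064 for Dnajb11 and -0.089 for Dnajc3. Manf, a secreted factor retained by BiP, was at -0.064, and Creld2, an ER-resident response gene, at -0.15 (limma adjusted p = 0.7235).

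Sdf2l1, an ER protein that works with J-domain chaperones, varied more than any other member. It was at 4.12, 2.85 and 4.42 FPKM in CKO 1 to 3 and 6.31, 3.80 and 4.49 FPKM in WT 1 to 3. The lowest library was CKO 2 and the highest WT 1, a range of 2.21-fold, and the other libraries of both groups overlapped. Its log2 fold change of -0.28 (SE 0.19, 95% interval -0.71 to 0.14, limma adjusted p = 0.768) had the widest interval of the 39. The value was -0.11 without WT 1, -0.13 without CKO 2 and -0.42 without WT 2.

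The protein disulfide isomerases, which form and rearrange disulfide bonds, included the one ER member whose groups were apart. Pdia3 (ERp57, chr2:121413775-121438687, plus strand) works on glycoproteins held by calnexin and calreticulin. It was at 69.75, 74.3 and 76.6 FPKM in CKO 1 to 3 and 77.0, 78.9 and 82.8 FPKM in WT 1 to 3. Every CKO library was below every WT library, though CKO 3 and WT 1 nearly touched. Means were 73.6 ± 3.49 FPKM over the CKO libraries and 79.6 ± 2.96 FPKM over the WT libraries (SD, n = 3 each), and the log2 fold change of -0.11 (SE 0.052, 95% interval -0.23 to 0.0067, limma adjusted p = 0.656) did not pass the threshold. P4hb, the founding member of the family and its most abundant here, was at 83.7, 87.9 and 91.0 FPKM in CKO 1 to 3 and 87.7, 88.4 and 91.8 FPKM in WT 1 to 3. CKO 1 was the lowest library and the others of both groups overlapped, with a log2 fold change of -0.029. Pdia4 and Pdia6 overlapped as well, with log2 fold changes of -0.0097 and 0.074.

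The stress sensors were expressed at moderate levels and overlapped between the groups. Atf6, the sensor that is cleaved in the Golgi to free a transcription factor, was at 17.8, 18.65 and 18.5 FPKM in CKO 1 to 3 and 18.95, 16.0 and 17.05 FPKM in WT 1 to 3. Only WT 2 and WT 3 lay below the CKO values, and WT 1 was the highest library. The fit gave a log2 fold change of 0.080 (SE 0.070, 95% interval -0.082 to 0.24, limma adjusted p = 0.821). Ern1, the kinase and RNase that splices Xbp1, was at 6.45 to 7.28 FPKM over the libraries with a log2 fold change of -0.055. Eif2ak3, the kinase that slows translation by phosphorylating eIF2α, was at 10.3 to 12.5 FPKM with -0.030. A value per gene does not show sensor activity or the splicing of Xbp1.

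The transcription factors of the response were likewise not separated by genotype. Xbp1 was at 31.15, 26.8 and 24.9 FPKM in CKO 1 to 3 and 29.2, 28.3 and 23.4 FPKM in WT 1 to 3. WT 3 was the lowest and CKO 1 the highest library, and the log2 fold change was 0.033 (SE 0.11, 95% interval -0.21 to 0.28, limma adjusted p = 0.961). Atf4, which translation control raises under stress and which is itself abundant as mRNA in the retina, was at 215, 222 and 249 FPKM in CKO 1 to 3 and 236, 236 and 274 FPKM in WT 1 to 3. CKO 1 and CKO 2 were below all WT libraries, CKO 3 was above WT 1 and WT 2, and WT 3 was the highest. Its log2 fold change of -0.12 (SE 0.078, 95% interval -0.30 to 0.060, limma adjusted p = 0.768) was -0.048 without WT 3 and -0.18 without CKO 3. Ddit3, which encodes the pro-apoptotic factor CHOP, was at 43.8, 47.3 and 48.3 FPKM in CKO 1 to 3 and 45.4, 48.6 and 43.0 FPKM in WT 1 to 3. The WT libraries spanned the CKO libraries, and the log2 fold change was 0.025 (SE 0.061, 95% interval -0.12 to 0.17, limma adjusted p = 0.9535).

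Trib3 and Chac1, the members grouped here as targets of ATF4 and CHOP, were near the lower end of expression. Other members may also respond to these factors, such as Herpud1, which has a CARE match and averaged 26.5 FPKM. Trib3, a pseudokinase induced in prolonged stress, was measured at 1.86, 2.02 and 2.66 FPKM in CKO 1 to 3 and 2.32, 3.22 and 2.25 FPKM in WT 1 to 3. CKO 3 lay above WT 1 and WT 3, and WT 2 was the highest library. Its log2 fold change was -0.18 (SE 0.15, 95% interval -0.52 to 0.17, limma adjusted p = 0.811), or -0.056 without WT 2. Chac1, which degrades glutathione and is induced by ATF4, was at 1.16, 1.02 and 0.943 FPKM in CKO 1 to 3 and 1.12, 1.76 and 1.05 FPKM in WT 1 to 3. WT 2 alone stood above the rest, and without it the log2 fold change moved from -0.17 (95% interval -0.52 to 0.18) to -0.030. With a pseudocount of 0.1 the Chac1 value was -0.27. WT 2 was also the library with the highest lens markers, 300.0 FPKM summed beside 79.8 to 136.8 FPKM in the others, and whether these played a part in the Trib3 and Chac1 values was not tested.

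The genes of ER-associated degradation overlapped between the groups too. Herpud1, a membrane scaffold of the degradation complex with both an ERSE-II and a CARE match in its promoter, was at 24.1, 25.7 and 29.5 FPKM in CKO 1 to 3 and 23.1, 26.8 and 30.1 FPKM in WT 1 to 3. CKO 1 and WT 1 were the lowest of their groups and CKO 3 and WT 3 the highest, and the spread within each group was larger than the difference between the group means. The log2 fold change was -0.0074 (SE 0.11, 95% interval -0.25 to 0.24, limma adjusted p = 0.991). Edem1, a lectin that hands misfolded glycoproteins on for degradation, was at 3.985 to 5.135 FPKM with a log2 fold change of -0.034.

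In the heat shock branch, the cytosolic HSP70 system held the member with the smallest p. Hsph1 encodes HSP110 (HSP105), a nucleotide exchange factor and holdase that releases HSP70 from its clients, and lies at chr5:149614287-149636376 on the minus strand. It was at 28.7, 26.3 and 27.7 FPKM in CKO 1 to 3 and 24.6, 24.0 and 25.25 FPKM in WT 1 to 3. Every CKO library was above every WT library, with means of 27.6 ± 1.24 FPKM over the CKO libraries and 24.6 ± 0.615 FPKM over the WT libraries (SD, n = 3 each), a ratio of 1.12. The log2 fold change of 0.16 (SE 0.054, 95% interval 0.033 to 0.28, limma adjusted p = 0.5505) had an unadjusted limma p of 0.0193, and it did not pass the adjustment. Over the 16 alternative analyses the adjusted p ran from 0.457 to 0.773. Hspa4, an HSP110 relative of the same function, had a log2 fold change of 0.081 with overlapping groups.

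The abundant and the inducible HSP70 genes overlapped between the groups. Hspa8, which folds and recycles proteins in unstressed cells and uncoats clathrin vesicles, was at 589, 607 and 609 FPKM in CKO 1 to 3 and 601, 599.7 and 589.6 FPKM in WT 1 to 3. These values differed by 1.03-fold at most, the smallest spread of the 39 members, and the log2 fold change was 0.012 (SE 0.042, 95% interval -0.084 to 0.11, limma adjusted p = 0.963). The stress-inducible Hspa1a was at 6.305, 4.31 and 4.63 FPKM in CKO 1 to 3 and 6.92, 5.50 and 5.16 FPKM in WT 1 to 3. Its neighbour Hspa1b was at 5.31, 4.01 and 4.07 FPKM in CKO 1 to 3 and 5.30, 5.81 and 4.885 FPKM in WT 1 to 3. For both genes CKO 2 and CKO 3 were below all WT libraries while CKO 1 was not. The log2 fold changes were -0.18 (SE 0.15, 95% interval -0.52 to 0.16, limma adjusted p = 0.8035) for Hspa1a and -0.22 (SE 0.12, 95% interval -0.49 to 0.052, limma adjusted p = 0.715) for Hspa1b. Without CKO 1 they were -0.32 and -0.33, and the adjusted p stayed above the threshold.

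Some HSP70 cofactors lay lower in every CKO library without passing the threshold. Dnajb1 (HSP40, chr8:83608193-83612653, plus strand), a J-domain partner that is induced by heat, was at 19.2, 17.2 and 20.15 FPKM in CKO 1 to 3 and 20.5, 20.4 and 21.0 FPKM in WT 1 to 3. All CKO libraries were below all WT libraries, with CKO 2 the lowest and CKO 3 close to WT 2. Its log2 fold change of -0.13 (SE 0.067, 95% interval -0.28 to 0.030, limma adjusted p = 0.715) became -0.063 without CKO 2. Bag3 (chr7:128523616-128546981, plus strand), a cochaperone that couples HSP70 to selective autophagy, was at 1.77, 1.61 and 1.32 FPKM in CKO 1 to 3 and 1.85, 1.955 and 2.61 FPKM in WT 1 to 3. Again every CKO library was below every WT library, and WT 3 stood highest. The log2 fold change was -0.29 (SE 0.14, 95% interval -0.60 to 0.029, limma adjusted p = 0.671). It was -0.18 without WT 3, and -0.44 with a pseudocount of 0.01, at which the change of so low a gene is less damped.

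WT 3 was also the library with the highest gliosis markers, 77.5 FPKM summed beside 35.3 to 52.4 FPKM in the others. The glial filament gene Gfap was at 20.2, 9.94 and 11.0 FPKM in CKO 1 to 3 and 9.96, 10.3 and 36.2 FPKM in WT 1 to 3, so that WT 3 and, less so, CKO 1 were high. Whether this played a part in the Bag3 difference was not tested. The remaining J-domain cochaperone, Dnaja1, overlapped between the groups with a log2 fold change of -0.012.

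The cytosolic HSP90 genes were among the most abundant transcripts and did not differ past the threshold. Hsp90ab1, the constitutive HSP90 (chr17:45567775-45573271, minus strand), was at 355, 369.8 and 373 FPKM in CKO 1 to 3 and 344, 345 and 353 FPKM in WT 1 to 3. Every CKO library was above every WT library, with CKO 1 only just above WT 3. In the limma fit its log2 fold change was 0.074 (SE 0.042, 95% interval -0.023 to 0.17, limma adjusted p = 0.734). The heat-inducible Hsp90aa1 was at 609, 578 and 563 FPKM in CKO 1 to 3 and 607, 592 and 583 FPKM in WT 1 to 3. Both groups overlapped, and CKO 1 and WT 1 were each the highest of their group. The log2 fold change was -0.027 (SE 0.048, 95% interval -0.14 to 0.084, limma adjusted p = 0.932), or 0.023 after quantile normalization. Hsp90aa1 was 1.51 to 1.76 times the level of Hsp90ab1 in the 6 libraries.

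Hsf1 and the small heat shock gene Hspb1 did not differ past the threshold either. Hsf1, the factor that drives the heat shock response and is itself regulated mainly as a protein, was at 19.7, 17.6 and 19.1 FPKM in CKO 1 to 3 and 18.1, 16.8 and 17.9 FPKM in WT 1 to 3. CKO 1 and CKO 3 were above all WT libraries and CKO 2 lay among them, with a log2 fold change of 0.088 (SE 0.063, 95% interval -0.058 to 0.23, limma adjusted p = 0.775). Hspb1, which holds unfolded proteins for refolding, was at 4.77, 4.625 and 3.04 FPKM in CKO 1 to 3 and 3.59, 3.47 and 3.95 FPKM in WT 1 to 3. CKO 3 was the lowest library and CKO 1 and CKO 2 the highest, so the CKO group spanned the WT group. The fitted log2 fold change was 0.12 (SE 0.15, 95% interval -0.22 to 0.46, limma adjusted p = 0.885).

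The mitochondrial chaperonin genes overlapped between the groups. Hspd1 encodes HSP60, the barrel that folds imported proteins, and Hspe1 encodes its lid, HSP10. Hspd1 was at 63.9, 65.6 and 60.0 FPKM in CKO 1 to 3 and 65.9, 61.8 and 57.8 FPKM in WT 1 to 3. CKO 3 and WT 3 were the lowest of their groups, and the groups overlapped with a log2 fold change of 0.0305 (SE 0.060, 95% interval -0.11 to 0.17, limma adjusted p = 0.941). Hspe1, which is read from the opposite strand of the same promoter region, was at 45.5 to 51.4 FPKM with a log2 fold change of -0.051. Hspd1 was 1.15 to 1.35 times Hspe1 within a library.

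Similarity between genes limits how well single values can be assigned in the heat shock branch. Of the 39 members, 29 shared no identical stretch of 100 bases with the transcript of another gene (GENCODE M21, longest protein-coding transcript). Stretches that differ at any base were not counted, so near-identical copies can be missed. Above 10% of such stretches were shared for 8 members, all of the heat shock branch. They were Hspa8 (62.8%), Hspa1b (49.9%), Hspa1a (48.6%), Hsp90aa1 (47.5%), Hspb1 (42.7%), Hspd1 (26.9%), Hspe1 (20.4%) and Dnaja1 (14.8%). Hspa1a and Hspa1b share sequence with each other and with Hspa1l, so their levels are uncertain as separate genes. Exons of another annotated gene covered more than 10% of 3 members, Hsp90b1 (15.7%), Hspa1a (19.0%) and Dnaja1 (10.8%). The sources used here do not state whether the counting used strand. Of the members with non-overlapping groups, Hsph1, Hsp90ab1, Pdia3, Dnajb1 and Bag3, none is in either of these lists.

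Variation between libraries was modest for most members. The highest library was a median of 1.19 times the lowest in the ER branch and 1.17 times in the heat shock branch, beside 1.24 times over the 13150 tested genes with no library at 0. For 26 members this spread was below 1.25-fold. The most variable were Sdf2l1 (2.21-fold), Bag3 (1.98-fold) and Chac1 (1.87-fold), and the least variable were Hspa8 and Canx. WT 3 was the lowest library for 9 members and the highest for 10, beside 2561 and 2638 of the 13215 genes tested. WT 1 was the highest for 11 members and 2282 of all genes, and CKO 2 for 0 members and 1670 of all genes. CKO 2 was the lowest for 6 members and 1651 of all genes. The median deviation of the ER branch from its mean over libraries was between -0.044 in WT 3 and 0.049 in CKO 3 (log2), and the medians of CKO 1 and CKO 2 were on the other side of 0 from that of CKO 3.

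**Figure D3:**
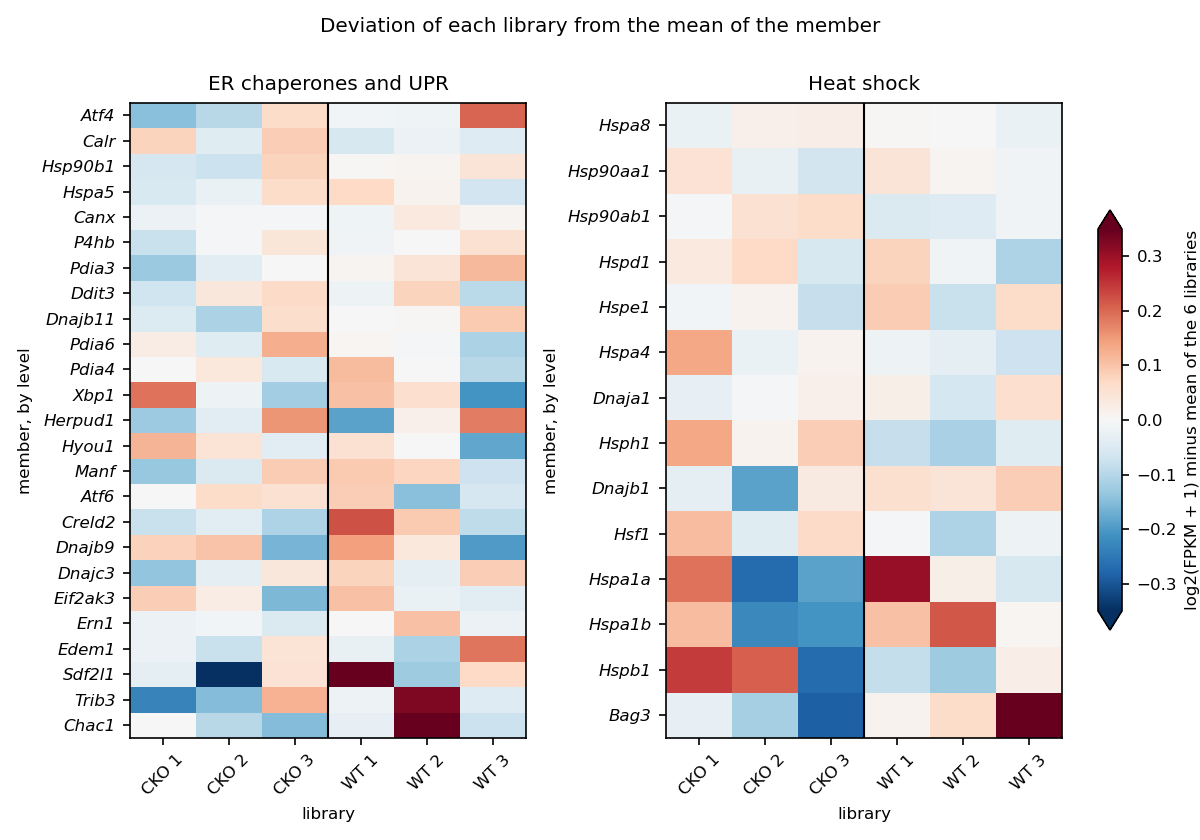
Deviation of log2(FPKM + 1) of each library (columns) from the mean over the 6 libraries, for each member (rows, highest level first), ER branch on the left and heat shock branch on the right, red above and blue below the mean, with colours held at the ends of the scale. The ER panel has no block of one colour on either side of the line between CKO and WT, and its strongest colours are in Sdf2l1, Trib3 and Chac1.

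Relations between ER members across the 6 libraries were computed for Xbp1 and Atf4, which drive separate arms of the response. Pearson's r between Xbp1 and Atf4 was -0.855 (exact permutation p = 0.0306, adjusted p = 0.160) and Spearman's rho -0.771 (exact permutation p = 0.103, adjusted p = 0.439). Without WT 3 and CKO 1, the libraries farthest from the median of Xbp1, r was -0.391. Leaving out the most extreme libraries narrows the range and can by itself lower r. This value therefore cannot decide whether the relation rests on these libraries. In all, 47 pairs of Xbp1 or Atf4 with an ER member were computed. The largest in size were Atf4 with Hyou1 (r = -0.964, rho = -0.829), Xbp1 with P4hb (r = -0.935, rho = -0.943) and Xbp1 with Hyou1 (r = 0.913, rho = 0.943). For each of these the adjusted exact permutation p of r was 0.104, as for Atf4 with P4hb and with Dnajb11, and it was the smallest of the 47, so that none passed 0.05. The raw exact permutation p of r was 0.0111, 0.00833 and 0.00833, and that of rho was 0.0583, 0.0167 and 0.0167, with an adjusted p for rho of 0.305, 0.261 and 0.261. Without WT 3 and CKO 1 the values of r were -0.784, -0.861 and 0.707. Hspa5 showed r = 0.090 with Xbp1 and 0.0025 with Atf4 (exact permutation p = 0.839 and 0.997). Too few libraries are in each genotype to give r within groups.

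The members with an ERSE match in the promoter included none past the threshold. The 7 genes printed above were abundant to moderate in level, and their groups overlapped in each case. Log2 fold changes were -0.0093 for Hspa5, -0.038 for Hsp90b1, 0.080 for Calr, -0.020 for Canx, 0.074 for Pdia6, -0.089 for Dnajc3 and -0.15 for Creld2. Of the 3 with an HSE match, Hsph1 had a log2 fold change of 0.16, Hspd1 of 0.0305 and Hspe1 of -0.051. With a CARE match, Chac1, Trib3 and Herpud1 were at -0.17, -0.18 and -0.0074. No difference between genes with and without a match was tested.

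Further genes of the same pathways held no call either. Of 127 genes in 4 lists, 121 were tested and 0 were called by limma. At an unadjusted limma p below 0.05 there were 5 (4.13%), beside 7.88% of all genes. Groups did not overlap for 15 (12.4%), beside 13.9% of all genes, so for the 4 lists pooled neither share was above that of all genes. By list, groups did not overlap for 16.2% (ER folding and degradation), 3.85% (ATF4 and related), 17.0% (cytosolic) and 0.0% (mitochondrial) of tested genes. In the same order, 8.11%, 0.0%, 2.13% and 9.09% had an unadjusted limma p below 0.05. Differences between the lists and all genes were not tested. Of the 37 tested genes of ER folding and degradation, 12 were above 0 and 25 below, with a median log2 fold change of -0.027. Those at an unadjusted p below 0.05 were Creb3l2, Vimp and Erlec1. Creb3l2, an ER-tethered transcription factor, was at 10.3, 9.92 and 9.73 FPKM in CKO 1 to 3 and 8.59, 8.70 and 8.05 FPKM in WT 1 to 3, with all CKO libraries higher (log2 fold change 0.22, limma adjusted p = 0.507). Vimp, the selenoprotein of the retrotranslocation complex, was at 32.0, 32.5 and 32.95 FPKM in CKO 1 to 3 and 33.4, 38.6 and 38.6 FPKM in WT 1 to 3, with all CKO libraries lower (log2 fold change -0.17, limma adjusted p = 0.591). Erlec1, a lectin of the degradation pathway, had a log2 fold change of -0.15 (limma adjusted p = 0.604) and also lay lower in every CKO library.

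A list of ATF4 targets and other genes of the same stress response, all outside the 39, held no gene past the threshold. It includes genes that are not ATF4 targets, such as Eif2ak1, Eif2ak2, Eif2ak4 and Eif2s1. Of 26 tested, 6 were above 0 and 20 below, with a median log2 fold change of -0.050 and 0 at an unadjusted limma p below 0.05. Stc2, a secreted glycoprotein induced by ATF4, was the 1 gene of these with non-overlapping groups (3.85%, beside 13.9% of all genes). It was at 2.16, 1.815 and 1.62 FPKM in CKO 1 to 3 and 1.57, 1.51 and 1.07 FPKM in WT 1 to 3. Every CKO library was above every WT library, and the log2 fold change was 0.27 (limma adjusted p = 0.698). The lowest log2 fold changes were those of Nupr1 (-0.35) and Atf3 (-0.35), both stress-induced nuclear factors with overlapping groups. Asns, which makes asparagine and is a standard ATF4 target, was at 20.7, 20.3 and 27.1 FPKM in CKO 1 to 3 and 27.3, 27.15 and 21.9 FPKM in WT 1 to 3, and CKO 3 and WT 3 crossed their groups. Its log2 fold change was -0.16 (limma adjusted p = 0.782).

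Other cytosolic chaperones and heat shock genes (47 tested) had a median log2 fold change of 0.013, with 25 above and 22 below 0. The crystallins Cryaa and Cryab were counted with the lens markers and are in none of the pathway lists. Their log2 fold changes were -1.44 (limma adjusted p = 0.601) and -0.18 (limma adjusted p = 0.778). Groups overlapped for both, and WT 2 was the highest library. Hspa2, an HSP70 paralogue, was at 2.79, 2.81 and 2.62 FPKM in CKO 1 to 3 and 3.51, 3.525 and 3.30 FPKM in WT 1 to 3. All CKO libraries were below all WT libraries, and the log2 fold change was -0.25 (limma adjusted p = 0.584). The oxidative stress gene Hmox1 varied 6.05-fold between libraries, at 9.07, 3.27 and 2.99 FPKM in CKO 1 to 3 and 2.12, 4.245 and 12.8 FPKM in WT 1 to 3, and was high in CKO 1 and WT 3, the libraries with the highest Gfap. Mitochondrial chaperones and proteases (11 tested) had a median of 0.010. Trap1, the mitochondrial HSP90, was at 29.1, 30.9 and 31.9 FPKM in CKO 1 to 3 and 26.7, 29.4 and 26.2 FPKM in WT 1 to 3, with a log2 fold change of 0.15 (limma adjusted p = 0.604) and overlapping groups.

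**Figure D4:**
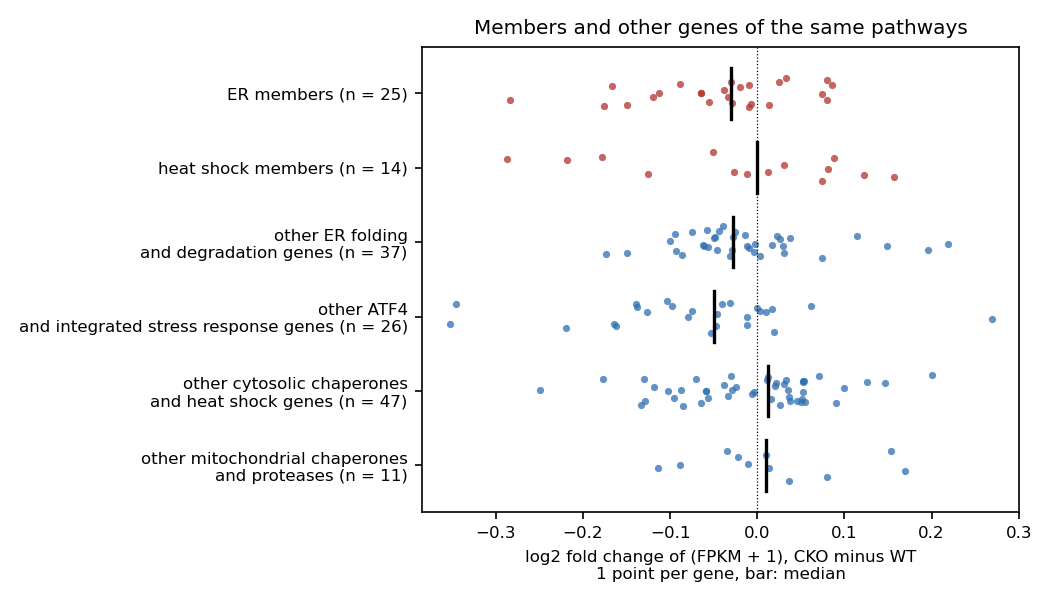
Log2 fold change of (FPKM + 1), CKO minus WT, for the members of each branch (red) and for 4 lists of other genes of the same pathways (blue), with 1 point per tested gene and a black bar at the median. All 6 medians lie between -0.050 and 0.013.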

How the data were processed

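Per the labels' protocols, retinal RNA was isolated with TRIzol and a stranded TruSeq mRNA kit was used. The submitters' processing notes list the build mm10 and the tools Cufflinks 2.2.1, TopHat2 2.0.13, SAMtools 1.11 and Bowtie2 2.3.5.1. The sources used here give no annotation, parameters or use of strand. The deposited values are FPKM, 1 per gene symbol and library, as Cufflinks gives, judged also from their fractions and their sums of 402832 to 436299 per library. In WT 3, 27 symbols turned into dates were replaced by those that other libraries hold in that row. FPKM keeps no counts, so precision was taken from the spread between libraries. Relative depth came from 1340 to 1412 ratios per library at genes with a mean below 0.3 FPKM, of which 79.9% to 83.8% lay on small whole-number ratios within 0.02 (log2).

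Values were transformed to log2(FPKM + 1), and 13215 genes averaging 1 FPKM or more over the 6 libraries were tested in R 4.3.3 with limma 3.58.1 (lmFit and trended eBayes, two-sided, no covariate, Benjamini-Hochberg at 0.05). The fit was also run on simulated data, and its power for differences as small as those of the members is not reported here. With 3 libraries against 3, the smallest two-sided exact permutation p for 1 gene is 0.1, so genes were not tested that way. The labels do not say whether replicate numbers pair the libraries, and the main fit used no pairing. Deviations of same-numbered libraries correlated at 0.072, 0.0063 and 0.10, and those of differently numbered libraries at -0.12 to 0.036. Values this small cannot decide whether the numbers pair the libraries.

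The members, their division into roles, and the lists of other pathway genes and markers were chosen with earlier results of these data known. Values in every library are given for members at an unadjusted p below 0.05, with non-overlapping groups, or most abundant in their role, for the 3 that varied most, and for Hspa5, Xbp1, Atf4, Ddit3, Hspa1a, Hspa1b and Hsf1. Of the other pathway lists, genes at an unadjusted p below 0.05 are named; Stc2, Nupr1, Atf3, Asns and Hmox1 were picked after their values were seen. Positions are from GENCODE M21 (GRCm38) and promoters from RefSeq. As 16 alternatives the fit was repeated with pseudocounts of 0.1 and 0.01, without the filter, with a minimum mean of 5 FPKM, size factors, quantile normalization, a replicate block, no variance trend, robust eBayes, sample weights, and each library left out in turn.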

Additional observations from a re-analysis of the deposited data

How the results depend on the processing

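No member was called under any of the 16 alternatives, and the smallest limma adjusted p of a member was 0.457, for Hsph1 with the replicate number as a block. Of the 39 members, 26 kept the sign of their log2 fold change throughout. The other 13 were close to 0. Quantile normalization turned the sign for Hspa5 (0.010), Canx (0.010), P4hb (0.0014), Herpud1 (0.0022), Dnaja1 (0.00072) and Hsp90aa1 (0.023), and sample weights for Pdia4 (0.0043). With libraries left out in turn, members that changed sign ranged from -0.017 to 0.069 for Ddit3, -0.0445 to 0.014 for Dnaja1, -0.083 to 0.097 for Dnajb9, -0.098 to 0.052 for Edem1, -0.081 to 0.041 for Eif2ak3, -0.10 to 0.081 for Herpud1, -0.045 to 0.023 for Hspa5, -0.016 to 0.077 for Hspd1, -0.057 to 0.0031 for P4hb, -0.060 to 0.044 for Pdia4 and -0.063 to 0.10 for Xbp1. The heat shock median of 0.00027 moved to 0.033 under quantile normalization. Hsph1 had an unadjusted p below 0.05 in 13 of the 16, not without CKO 1, CKO 3 or WT 2, and between 0 and 4 members did so in any one. With the replicate block, which rests on numbers not known to pair the libraries, they were Atf4, Hsph1 and Pdia3, and 2 of all genes were called. The count of all genes called was 1 without the variance trend and 1 to 4 with a library left out, the lowest without WT 2. Cyfip2 kept a log2 fold change of -2.29 but lost its call with no filter on low values (adjusted p = 0.0740), no variance trend (0.102) and robust eBayes (0.111). It ranged from -2.56 to -2.15 with a library left out and was called only without WT 1 (adjusted p = 0.000985, up to 0.182 without WT 2). The cause of these changes was not tested. With 3 libraries a group and no read counts, the intervals of most members reach no farther than 1.25-fold, smaller differences were not resolved, and members near 1 FPKM are less precise. The filter at 5 FPKM left 32 members tested.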
